A study of Mus musculus with 12 samples.

Results

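Replication-dependent histone genes encode the core histones H2A, H2B, H3 and H4 and several linker H1 histones that package newly copied DNA. On these bead arrays they were represented by 60 of 19057 named genes and by 90 of the 45281 probes. The members were chosen by gene name: every gene whose current symbol begins with H2ac, H2bc, H3c or H4c and a digit, or whose older symbol begins with Hist1h, Hist2h, Hist3h or Hist4h. No measured value entered that rule, although the family itself was picked with earlier results of these data known. RNA came from lower abdominal muscle of male FVB/N mice aged 1 month, with 4 arrays in each of 3 groups. WT mice were the controls, and AromhumL and AromhumH mice carried a human aromatase transgene expressed at a lower and at a higher level, respectively. Aromatase is the enzyme that converts androgens to oestrogens. The labels name neither the promoter that drives the transgene nor the number of founder lines, and they do not say whether each array came from a separate animal, so the p-values measure the spread between these arrays only.

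The tissue label was checked against skeletal muscle markers, of which 9 of 9 with a probe were detected and 0 differed between AromhumH and AromhumL by limma (smallest adjusted p 0.130). Mean raw intensity over all probes was 318 ± 49.9 in WT, 259 ± 25.05 in AromhumL and 335 ± 31.6 in AromhumH (SD, n = 4 each), and the dimmest array was AromhumL 1 at 222. Of 45281 probes, 19004 had a detection p under 0.05 on at least 4 of 12 arrays and were tested. All levels below are background-corrected, quantile-normalized log2 intensities, and all adjusted p-values are from limma with Benjamini-Hochberg adjustment over those 19004 probes. A level on one probe cannot be set against a level on another, since probes differ in brightness.

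Cells make most replication-dependent histone mRNA while they copy their DNA, in S phase. These mRNAs usually end in a stem-loop, bound by the protein SLBP, in place of a poly(A) tail, and they are degraded when DNA synthesis stops. Some of the same genes also give polyadenylated transcripts in cells that have left the cycle, and labelling kits of the type used here prime on poly(A), so the arrays may read a mixture that favours the polyadenylated forms. Most of these genes lack introns, lie in clusters named Hist1 (chromosome 13), Hist2 (chromosome 3), Hist3 and Hist4, and have near-identical copies, so that a probe may read more than 1 gene. How the probes' signal is split between copies is uncertain, and probe sequences were not used here.

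Promoters are shown because neighbouring H2A and H2B genes are often read in opposite directions from a short shared stretch, and because the H2A genes of Hist1 gave the changed probes described below. RefSeq (GRCm38.p6) windows of 250 bases before to 50 bases after the annotated start were at hand for 62 of 71 genes of this kind, among them 54 of the 60 genes with a probe and all 8 genes with a changed probe. The 250 bases before the start are printed for 3 H2A genes: H2ac22, which had the largest change, H2ac11, the dimmest of the changed genes, and H2ac20 from the Hist2 cluster, with no changed probe. Capitals mark the TATAAA motif, the CCAAT motif and the octamer, each in either orientation.
H2ac22, chr13:21787249-21787498, minus strand: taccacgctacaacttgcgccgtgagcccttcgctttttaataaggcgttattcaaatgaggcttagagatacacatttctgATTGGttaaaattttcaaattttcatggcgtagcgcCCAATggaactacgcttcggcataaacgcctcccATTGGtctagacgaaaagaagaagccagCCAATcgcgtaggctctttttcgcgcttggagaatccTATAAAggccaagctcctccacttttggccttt
H2ac11, chr13:22042950-22043199, minus strand: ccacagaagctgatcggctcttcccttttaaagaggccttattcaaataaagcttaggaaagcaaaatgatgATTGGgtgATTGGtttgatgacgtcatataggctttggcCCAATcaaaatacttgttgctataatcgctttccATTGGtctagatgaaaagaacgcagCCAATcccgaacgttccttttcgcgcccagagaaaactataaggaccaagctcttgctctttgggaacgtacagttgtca
H2ac20, chr3:96220881-96221130, minus strand: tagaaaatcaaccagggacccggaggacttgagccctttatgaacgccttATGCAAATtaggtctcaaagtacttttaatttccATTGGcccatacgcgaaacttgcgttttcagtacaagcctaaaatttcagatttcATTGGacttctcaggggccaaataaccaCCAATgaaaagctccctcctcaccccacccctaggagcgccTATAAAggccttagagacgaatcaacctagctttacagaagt
H2ac22 held 1 TATAAA and 4 CCAAT matches, H2ac11 held 5 CCAAT matches and no TATAAA, and H2ac20 held 1 TATAAA, 3 CCAAT and 1 octamer match. CCAAT is the box bound by the factor NF-Y, and the octamer, ATTTGCAT on one strand and ATGCAAAT on the other, is known from human H2B promoters as an OCT1 site.

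Across the full windows of 300 bases, searched on both strands with each motif counted on its own even where matches overlap, CCAAT was present in 54 of 63 histone promoters, 1 gene having 2 (85.7%, against 37.4% of all 32851 promoters). TATAAA was present in 35 of 63 (55.6%, against 13.6%), and the octamer in 14 of 63 (22.2%, against 1.74%). By class, CCAAT was found in 18 of 18 H2A, 17 of 17 H2B, 10 of 10 H3 and 6 of 6 H1 promoters, but in 3 of 12 H4 promoters. The octamer was found in 7 of 18 H2A and 7 of 17 H2B promoters and in no promoter of the other classes. Among the 8 H2A genes with a changed probe, 8 held CCAAT, 4 held TATAAA and 1 held the octamer. Of the 10 other H2A genes with a window, 10 held CCAAT, 7 held TATAAA and 6 held the octamer. These others include untested genes, such as H2ac8, detected too rarely, and H2ac23, without a probe, so they are not a set of unchanged genes. These are matches of letters, not mapped binding sites, and some annotated starts lie at the start codon or upstream of the TATAAA match, so a window can miss the true promoter.

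Detection differed between the classes. Of the 90 probes, 53 were detected on all 12 arrays, 9 on 4 to 11 arrays, 13 on 1 to 3 arrays and 15 on none, so that 62 probes of 42 genes were tested. H2A had 20 of 24 probes tested, H2B 14 of 20, H3 11 of 18 and H4 15 of 21. Among linker histones only H1f2 was tested, with 2 of the 7 H1 probes. H1f1, H1f3, H1f4 and the testis linker histone H1f6 were detected on 0 arrays, and H1f5 on 1 array. By cluster, 48 tested probes belonged to Hist1, 13 to Hist2 and 1 to Hist4, and none of the 3 Hist3 probes was detected often enough to be tested.

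Between AromhumH and AromhumL, 9 of 62 histone probes (14.5%) passed adjusted p under 0.05 and all 9 were higher in AromhumH, where 4.74% of all tested probes were called, 2.86% higher and 1.88% lower. All 9 were H2A probes of the Hist1 cluster and belonged to 8 genes: H2ac7, H2ac10, H2ac11, H2ac12, H2ac13, H2ac15, H2ac22 and H2ac24. H2A pairs with H2B in the dimers that flank the H3 and H4 core of the nucleosome, and these genes encode near-identical H2A proteins. Without any adjustment, 30 of 62 histone probes had p under 0.05 in this comparison, as did 4625 of all 19004 tested probes. The unadjusted counts by class below are to be read against that all-probe count. The count of calls depended on which array was left out. No histone probe passed once AromhumH 1, 2 or 4 or AromhumL 1 or 4 was dropped (a count of 0 for each), 3 passed when AromhumL 3 was dropped and 16 when AromhumH 3 was. The size of the change moved less. Without AromhumH 1, 2 or 4 the median of the 13 tested Hist1 H2A probes was 1.38, 1.77 or 1.39, against 1.60 with all arrays. Without AromhumL 1 or 4 it was 1.38 or 1.59. The count was 0 on the authors' processed values, 0 when each array's brightness entered the model, and 17 with median scaling in place of quantiles. Each of the 9 probes stayed higher in AromhumH in every setting tried. Leaving out an array could not have reversed that direction, because for all 9 probes every AromhumH array lay above every AromhumL array. With brightness in the model the changes were smaller: the median of the 13 tested Hist1 H2A probes went from 1.60 to 0.71, and H2ac22 from 2.19 to 1.14. That model left 0 calls among all tested probes. Mean intensity ran from 222 to 274 in AromhumL and from 296 to 373 in AromhumH, without overlap. Brightness and group therefore cannot be told apart in this comparison.

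**Figure D1:**
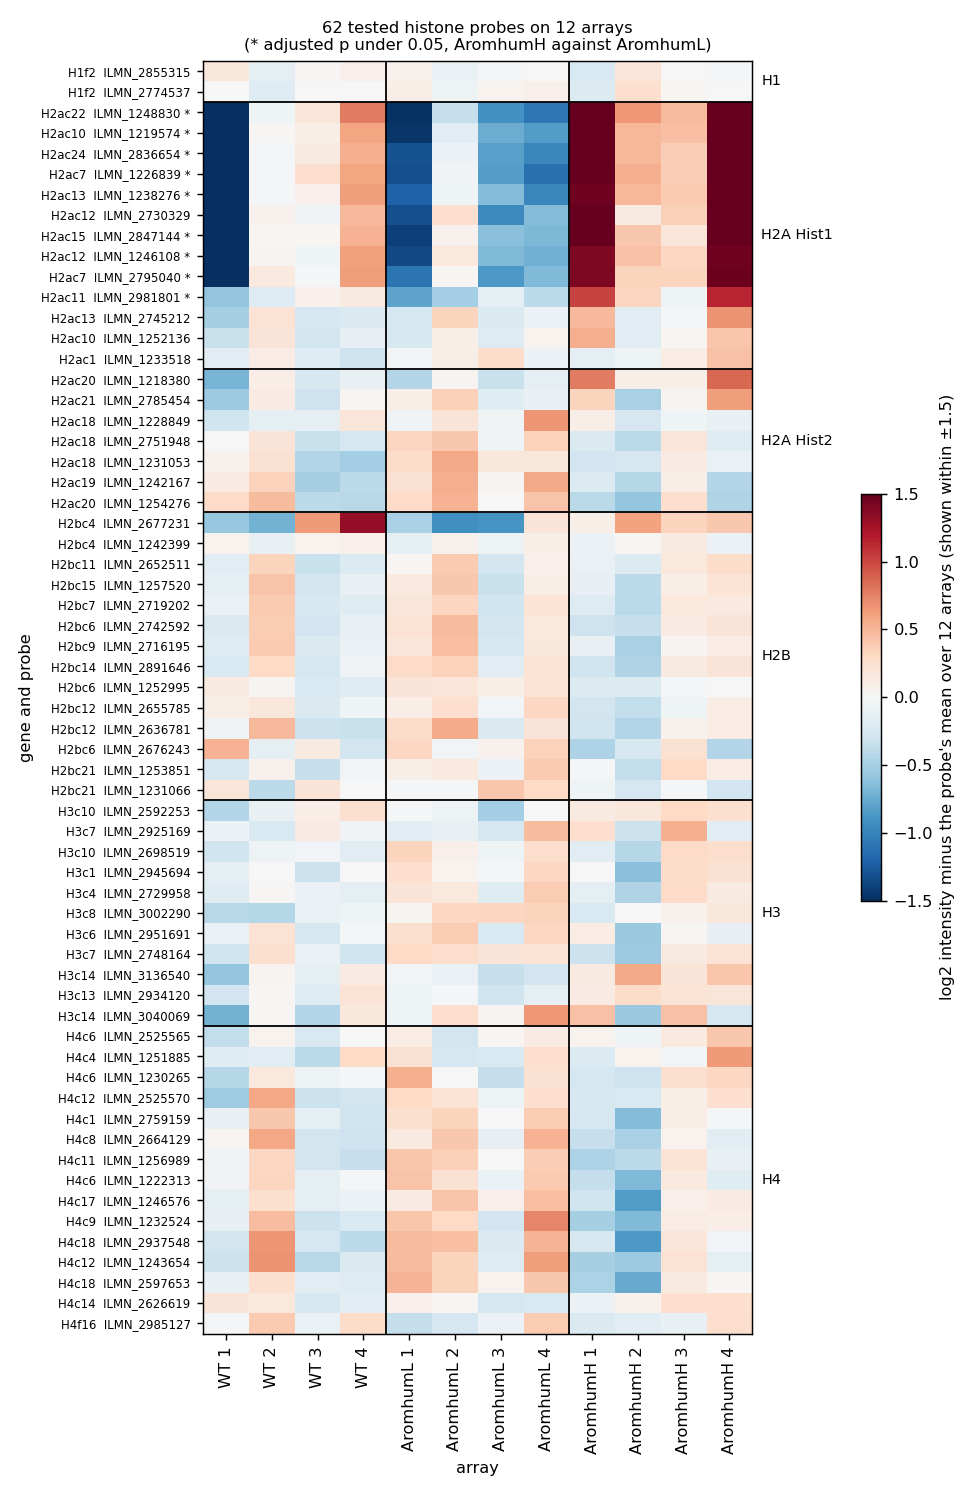
Heat map of the 62 tested histone probes (vertical axis, by class and cluster, then by change) on 12 arrays (horizontal axis), coloured by log2 intensity minus the probe's mean over the arrays, with colours limited to 1.5 either way. The block of Hist1 H2A probes marked with an asterisk is darkest red on AromhumH 1 and AromhumH 4 and darkest blue on WT 1 and AromhumL 1, and no such block appears among H2B, H3 or H4 probes.

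H2ac22 (Hist1h2an, probe ILMN_1248830) had log2 intensities of 6.76, 8.69, 8.95 and 9.55 on WT 1 to 4, of 7.28, 8.42, 7.85 and 7.68 on AromhumL 1 to 4, and of 10.57, 9.41, 9.24 and 10.76 on AromhumH 1 to 4. Every AromhumH array lay above every AromhumL array, while WT spanned a range that began below AromhumL and ended inside AromhumH. The difference between AromhumH and AromhumL was 2.19 (SE 0.48, adjusted p = 0.0231), or 4.55-fold, the largest among the histone probes.

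H2ac10 (Hist1h2af, probe ILMN_1219574) read 7.03, 9.11, 9.20 and 9.69 on WT 1 to 4, 7.64, 8.92, 8.35 and 8.25 on AromhumL 1 to 4, and 10.79, 9.59, 9.54 and 11.03 on AromhumH 1 to 4. Again the transgenic groups did not overlap, and WT 1 was the lowest array of all. The change from AromhumL to AromhumH was 1.95 (SE 0.48, adjusted p = 0.0329). The second probe of H2ac10, ILMN_1252136, is described with the brightest probes below and did not pass.

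H2ac24 (Hist1h2ap, probe ILMN_2836654) gave 8.24, 10.18, 10.33 and 10.74 on the WT arrays, 8.89, 10.11, 9.38 and 9.21 on the AromhumL arrays and 11.94, 10.69, 10.57 and 12.03 on the AromhumH arrays. AromhumH 1 and AromhumH 4 stood more than 1 log2 unit above the other pair of AromhumH arrays, which were close to WT 3 and WT 4. AromhumH exceeded AromhumL by 1.91 (SE 0.46, adjusted p = 0.0321).

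H2ac7 (Hist1h2ad) had 2 tested probes, and both passed. The brighter, ILMN_1226839, read 8.23, 9.997, 10.26 and 10.61 in WT, 8.69, 9.96, 9.18 and 8.90 in AromhumL and 11.62, 10.56, 10.38 and 11.76 in AromhumH. Its dimmer companion, ILMN_2795040, read 6.25, 8.12, 7.96 and 8.59 in WT, 6.88, 7.99, 7.11 and 7.31 in AromhumL and 9.37, 8.30, 8.30 and 9.44 in AromhumH. The arrays at the top and at the bottom were the same for both probes, and neither probe's AromhumH and AromhumL arrays overlapped. Their changes between the transgenic groups were 1.90 (SE 0.44, adjusted p = 0.0292) and 1.53 (SE 0.41, adjusted p = 0.0462).

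H2ac13 (Hist1h2ai, probe ILMN_1238276) measured 7.43, 9.32, 9.42 and 9.97 in WT, 8.13, 9.28, 8.69 and 8.36 in AromhumL and 10.81, 9.84, 9.73 and 11.15 in AromhumH. Its change from AromhumL to AromhumH was 1.76 (SE 0.45, adjusted p = 0.0369). The same order of arrays held at both ends, with WT 1 and AromhumL 1 lowest.

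H2ac15 (Hist1h2ak, probe ILMN_2847144) measured 6.17, 7.89, 7.89 and 8.38 in WT, 6.45, 7.93, 7.23 and 7.18 in AromhumL and 9.47, 8.27, 8.05 and 9.40 in AromhumH, a change of 1.60 between the transgenic groups (SE 0.43, adjusted p = 0.0469). The gap between its highest AromhumL array and its lowest AromhumH array was only 7.93 against 8.05. H2ac12 (Hist1h2ah, probe ILMN_1246108) measured 6.32, 7.96, 7.86 and 8.53 in WT, 6.57, 8.08, 7.26 and 7.20 in AromhumL and 9.32, 8.36, 8.23 and 9.37 in AromhumH, a change of 1.54 (SE 0.41, adjusted p = 0.0435). Both genes thus had their lowest readings on WT 1 and AromhumL 1. The other H2ac12 probe, ILMN_2730329, differed by 1.64 (SE 0.46) but missed the threshold (adjusted p = 0.0525), and its AromhumH and AromhumL arrays overlapped.

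H2ac11 (Hist1h2ag, probe ILMN_2981801) was the dimmest of the 9, being detected on 3 of 4 WT arrays, 1 of 4 AromhumL arrays and 4 of 4 AromhumH arrays. It read 4.51, 4.91, 5.17 and 5.24 in WT, 4.31, 4.59, 4.95 and 4.71 in AromhumL and 6.12, 5.42, 5.04 and 6.24 in AromhumH. The transgenic groups came closest to each other at AromhumL 3 and AromhumH 3 and did not overlap. Its change was 1.07 (SE 0.24, adjusted p = 0.0271), and as most AromhumL arrays did not detect it, the low side of that difference is close to background.

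**Figure D2:**
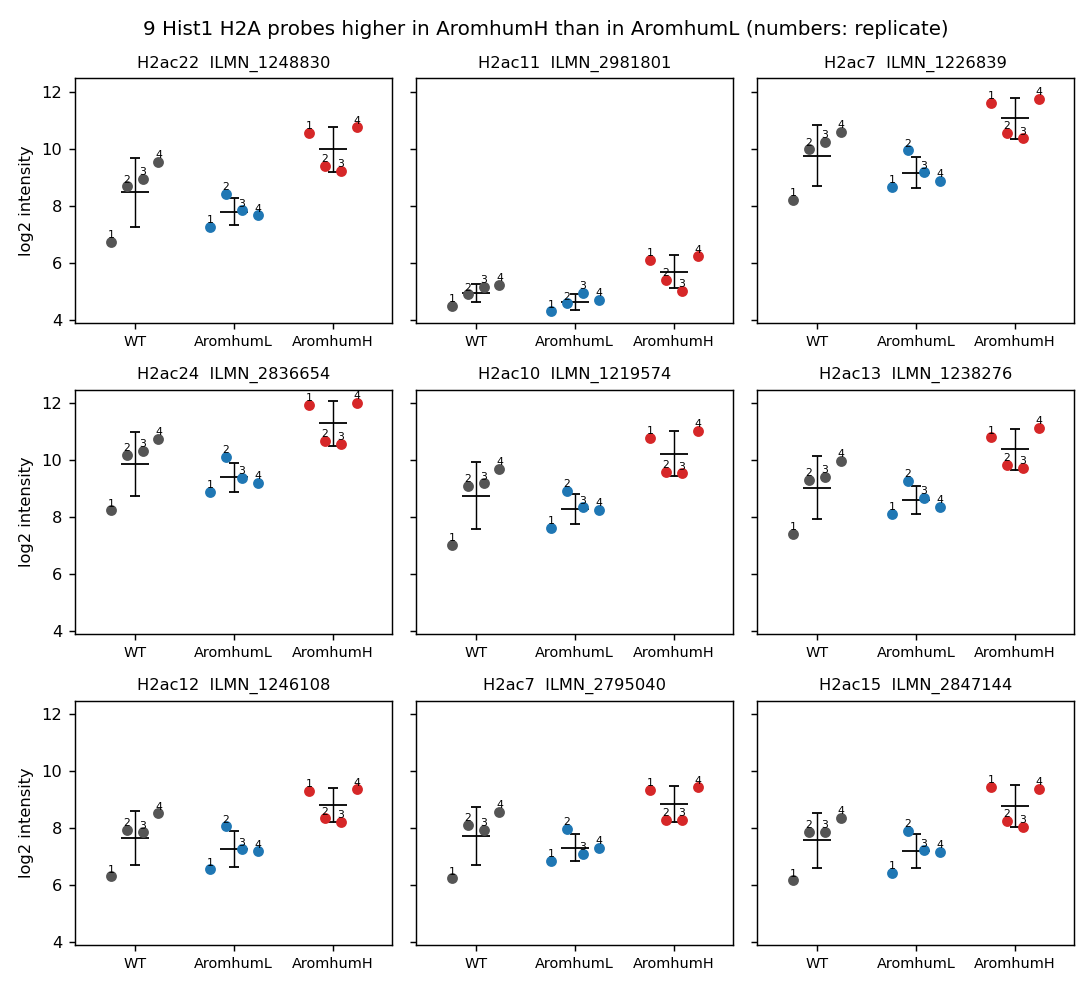
Each panel plots the log2 intensity of 1 changed H2A probe (vertical axis) on every array by group (horizontal axis); points carry the replicate number, the bar is the mean and the whiskers are the SD (n = 4). In all 9 panels AromhumH 1 and 4 are the highest arrays, and WT 1 lies far below the other WT arrays in most.

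The 9 probes moved together across arrays. AromhumH 1 and AromhumH 4 were the 2 highest arrays for 9 of 9 probes. WT 1 was lowest for 8 probes and AromhumL 1 for the remaining 1, H2ac11. Because the probes may read each other's transcripts, they cannot be counted as 9 separate observations. Averaged over the 9 probes, WT read 6.77, 8.46, 8.56 and 9.03, AromhumL read 7.20, 8.36, 7.78 and 7.64, and AromhumH read 10.0003, 8.94, 8.79 and 10.13. WT 4 thus lay above AromhumH 2 and AromhumH 3. The spread within a group was also unusual: the median SD of the 9 probes was 1.06 in WT, 0.52 in AromhumL and 0.71 in AromhumH, against 0.28, 0.23 and 0.28 for the other 53 tested histone probes and 0.22, 0.21 and 0.21 for all tested probes.

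Of the 13 tested Hist1 H2A probes, 13 had a higher mean in AromhumH than in AromhumL, with a median change of 1.60 against -0.01 over all tested probes. The 4 that did not pass were the second probes of H2ac10, H2ac12 and H2ac13 and the only probe of H2ac1, a testis H2A, whose change was 0.03 (adjusted p = 0.931). H2ac13 probe ILMN_2745212 read 11.01, 11.72, 11.25 and 11.28 in WT, 11.25, 11.84, 11.28 and 11.41 in AromhumL and 11.99, 11.33, 11.48 and 12.18 in AromhumH, a change of 0.30 (SE 0.21, adjusted p = 0.396). That probe was brighter than its partner, and its groups overlapped, although AromhumH 1 and 4 were again its highest arrays. H2ac4, H2ac6 and H2ac8, also Hist1 H2A genes, were detected on 1 to 3 arrays and were not tested.

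The 7 tested probes of Hist2 H2A genes had a median change of -0.41 between AromhumH and AromhumL, with 5 of 7 lower in mean in AromhumH and 0 passing by limma (5 had unadjusted p under 0.05). With median scaling that median was -0.03, still below the median of all tested probes, which that scaling put at 0.30. With brightness in the model the Hist2 H2A median was -0.19. The difference between the Hist1 and Hist2 H2A genes was not tested. H2ac20 (Hist2h2ac), whose promoter is printed above, had 2 probes that went opposite ways. Probe ILMN_1218380 read 10.72, 11.51, 11.17 and 11.30 in WT, 10.96, 11.45, 11.07 and 11.28 in AromhumL and 12.19, 11.49, 11.49 and 12.27 in AromhumH. Probe ILMN_1254276 read 9.20, 9.39, 8.53 and 8.50 in WT, 9.20, 9.44, 8.92 and 9.34 in AromhumL and 8.51, 8.33, 9.16 and 8.47 in AromhumH. The first followed the array order of the Hist1 H2A probes, with AromhumH 1 and 4 on top, and the second did not. Their changes were 0.67 (adjusted p = 0.0714) and -0.61 (adjusted p = 0.111), so neither passed. H2ac19 (Hist2h2aa2, probe ILMN_1242167) had means of 11.21 in WT, 11.67 in AromhumL and 11.08 in AromhumH, and its change of -0.59 did not pass either (adjusted p = 0.0858).

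H2B, the partner of H2A in the dimer, showed no called probe among 14 by limma (2 had unadjusted p under 0.05, smallest adjusted p 0.148). The median change between AromhumH and AromhumL was -0.24, and 12 of 14 probes had a lower mean in AromhumH. The brightest H2B probe, H2bc4 (Hist1h2bc) ILMN_1242399, read 11.99, 11.82, 11.99 and 12.02 in WT, 11.81, 12.004, 11.87 and 12.03 in AromhumL and 11.85, 11.97, 12.07 and 11.86 in AromhumH. All 12 arrays fell within a narrow band, and the change was 0.01 (SE 0.12, adjusted p = 0.974). A second and much dimmer H2bc4 probe, ILMN_2677231, read 4.90, 4.76, 6.11 and 6.78 in WT, 4.97, 4.55, 4.58 and 5.65 in AromhumL and 5.55, 6.07, 5.80 and 5.87 in AromhumH. It was detected on 2 of 4 AromhumL arrays, its groups overlapped, and its change of 0.88 did not pass (SE 0.36, adjusted p = 0.148).

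In the RefSeq windows, 10 pairs of H2A and H2B genes on chromosome 13 were read away from each other with starts 164 to 281 bases apart, and in 4 pairs both genes were tested. H2ac7 differed by 1.90 between AromhumH and AromhumL while H2bc7, 174 bases away, differed by -0.17 (SE 0.18, adjusted p = 0.599). For H2ac15 and H2bc15, 164 bases apart, the changes were 1.60 and -0.13 (SE of the latter 0.19, adjusted p = 0.710). For H2ac12 and H2bc12, 178 bases apart, they were 1.54 and -0.30 (SE 0.14, adjusted p = 0.206), and for H2ac11 and H2bc11, 249 bases apart, 1.07 and -0.02 (SE 0.18, adjusted p = 0.954). Each H2A gene was shown by its probe with the smallest adjusted p in this comparison, and each H2B gene by its brightest tested probe. The H2A side was thus chosen on the result shown, although in these 4 pairs that probe was also the gene's brightest or only tested one. In each of the 4 pairs the H2A probe shown passed and the H2B probe did not, and the difference between the partners was not itself tested. H2bc7 read 10.20, 10.68, 10.05 and 10.12 in WT, 10.48, 10.62, 9.999 and 10.49 in AromhumL and 10.10, 9.89, 10.46 and 10.44 in AromhumH, so all groups overlapped and WT 1 was not low.

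**Figure D3:**
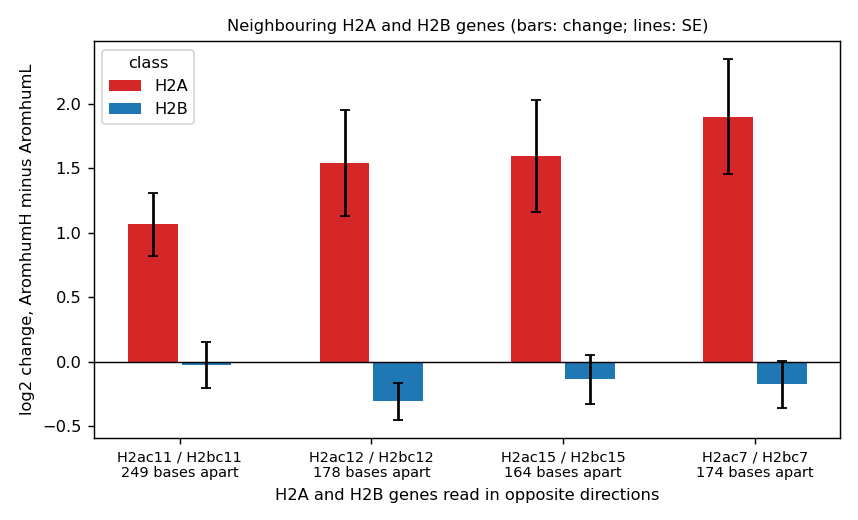
Bars give the log2 change between AromhumH and AromhumL (vertical axis) of H2A and H2B genes that are read in opposite directions from starts 164 to 249 bases apart (horizontal axis, 4 pairs), with lines for the SE. The H2A bars lie between 1.07 and 1.90 and the H2B bars between -0.30 and -0.02. H2A genes are shown by the probe with the smallest adjusted p, H2B genes by the brightest tested probe.

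H3 and H4 form the tetramer at the centre of the nucleosome. Among 11 H3 probes 0 passed between AromhumH and AromhumL by limma (4 had unadjusted p under 0.05, smallest adjusted p 0.0715), with a median change of -0.18. The brightest, H3c13 (Hist2h3b) ILMN_2934120, read 9.22, 9.53, 9.33 and 9.72 in WT, 9.45, 9.50, 9.22 and 9.36 in AromhumL and 9.64, 9.80, 9.72 and 9.70 in AromhumH. AromhumH lay above AromhumL without overlap, by 0.33 (SE 0.13), but this did not pass (adjusted p = 0.140). H3c14 (Hist2h3c1) ILMN_3136540 read 8.69, 9.31, 9.14 and 9.40 in WT, 9.23, 9.17, 8.93 and 8.98 in AromhumL and 9.41, 9.84, 9.46 and 9.69 in AromhumH. It was the only tested histone probe whose AromhumH arrays all lay above both other groups. The differences were 0.52 over AromhumL (adjusted p = 0.0715) and 0.47 over WT (adjusted p = 0.179), and neither passed. Among all 19004 tested probes, 846 had every AromhumH array above every WT array, and 1359 had it above every AromhumL array. Among the 62 histone probes these counts were 1 and 13.

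Of 15 H4 probes, 11 had a lower mean in AromhumH than in AromhumL, with a median change of -0.47, yet 0 passed by limma (9 had unadjusted p under 0.05, smallest adjusted p 0.0733). The brightest, H4c1 (Hist1h4a) ILMN_2759159, read 10.82, 11.33, 10.78 and 10.63 in WT, 11.17, 11.27, 10.92 and 11.31 in AromhumL and 10.68, 10.28, 11.03 and 10.90 in AromhumH. Its groups overlapped, and its log2 change from AromhumL to AromhumH was -0.44 (SE 0.18, adjusted p = 0.149). H4c18 ILMN_2597653 had the smallest p of the class, with 8.42, 8.24, 7.96 and 8.31 in AromhumL against 7.44, 7.15, 8.04 and 7.92 in AromhumH, a change of -0.59 (SE 0.19, adjusted p = 0.0733). AromhumH 3 was the highest AromhumH array for that probe, and 3 H4 probes passed when it was left out. The signs of the H2B and H3 medians depend on the scaling. Median scaling in place of quantiles moved the median of all tested probes to 0.30. It put those of H2B and H3 at 0.19 and 0.21, and that of H4 at -0.04, each below that of all probes. With brightness in the model the medians of H2B, H3 and H4 were smaller in size, at -0.05, -0.10 and -0.15.

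The linker histone H1f2 (Hist1h1c) ILMN_2774537 was the brightest histone probe, at 12.25, 12.05, 12.24 and 12.25 in WT, 12.34, 12.17, 12.31 and 12.32 in AromhumL and 12.04, 12.50, 12.28 and 12.25 in AromhumH. Linker histones bind the DNA that enters and leaves the nucleosome. The 3 groups overlapped, and the change between AromhumH and AromhumL was -0.02 (SE 0.13, adjusted p = 0.945). The brightest H2A probe, H2ac10 ILMN_1252136, read 11.44, 11.97, 11.51 and 11.66 in WT, 11.54, 11.88, 11.58 and 11.83 in AromhumL and 12.32, 11.61, 11.80 and 12.20 in AromhumH. AromhumH 1 and 4 were its highest arrays too, but the change of 0.28 (SE 0.17) did not pass (adjusted p = 0.343), against 1.95 for the other probe of the same gene.

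**Figure D4:**
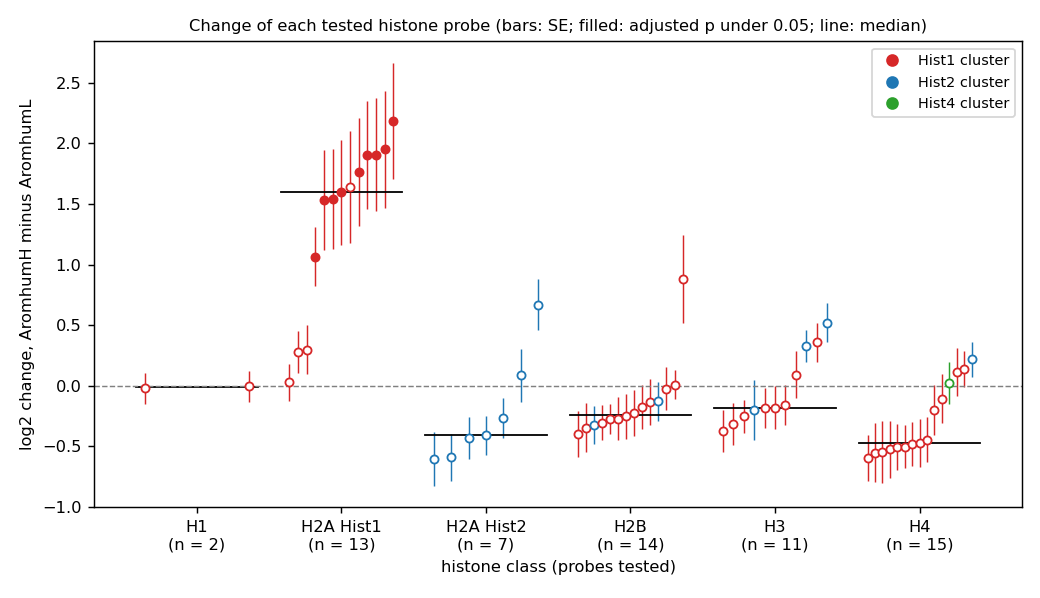
Points give the log2 change between AromhumH and AromhumL with its SE (vertical axis) for each of the 62 tested probes, by histone class (horizontal axis) and coloured by cluster; filled points passed adjusted p under 0.05 and lines are class medians. The 9 filled points are all Hist1 H2A probes between 1.07 and 2.19, and the H4 median lies at -0.47.

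Probes of 1 gene did not always move together. Of 17 genes with more than 1 tested probe, 12 had all probes on the same side of 0 in the comparison of AromhumH with AromhumL, and 10 had them within 0.5 of each other. The widest gaps were in H2ac10 (0.28 and 1.95), H2ac13 (0.30 and 1.76), H2ac20 (-0.61 and 0.67) and H2bc4 (0.01 and 0.88). H3c14, H4c6, H3c10 and H3c7 also had probes with opposite signs. H2ac7, H2ac12, H2ac18, H2bc6, H2bc12, H2bc21, H4c12, H4c18 and H1f2 had probes that differed by 0.37 or less, as the heat map shows array by array.

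Against WT, the higher-expressing transgenic group showed 0 called histone probes of 62 by limma, where 0.752% of all tested probes were called. Unadjusted p was under 0.05 for 12 of 62 histone probes and for 3006 of all 19004 tested probes. H2ac22 was 1.51 above WT (SE 0.48, adjusted p = 0.145), H2ac24 1.43 (adjusted p = 0.1505) and H2ac10 ILMN_1219574 1.48 (adjusted p = 0.1498). For each of them AromhumH and WT overlapped. The 13 Hist1 H2A probes had a median difference of 1.21, and 13 of 13 had a higher mean in AromhumH. Without WT 1 that median was 0.74, with H2ac22 at 0.93 and H2ac24 at 0.89. H2B, H3 and H4 had medians of -0.04, 0.14 and -0.17. Leaving out AromhumH 3 brought 1 probe, that of H2ac11, past the threshold.

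AromhumL and WT did not differ at any histone probe by limma, nor at any other, with 0% of all tested probes called. Unadjusted p was under 0.05 for 4 of 62 histone probes and for 1451 of all 19004 tested probes. The median over the 62 probes was 0.17, against 0.00 over all tested probes, and 44 of 62 had a higher mean in AromhumL. H4 had 13 of 15 probes above 0 with a median of 0.27, whereas the Hist1 H2A probes had 3 of 13 above 0 with a median of -0.39. Both signs depend on the processing. With median scaling the H4 median was -0.02, still above that of all tested probes at -0.24. With brightness in the model the Hist1 H2A median was 0.23. H3c8 ILMN_3002290 was the only tested histone probe whose AromhumL and WT arrays did not overlap, at 4.44, 4.42, 4.76 and 4.79 in WT and 4.90, 5.16, 5.18 and 5.19 in AromhumL. That probe was detected on 2 of 4 WT arrays and 4 of 4 AromhumL arrays, so its WT side is close to background. It did not pass (0.50, SE 0.14, adjusted p = 0.653). Among all 19004 tested probes, 412 were higher and 329 lower in AromhumL than in WT without overlap. Both comparisons with WT share the same 4 WT arrays, and the 2 comparisons with AromhumH share its arrays.

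Genes for DNA replication and division were read from the same fit. Their calls between AromhumH and AromhumL, and those of the lists below, carry the same limits as the H2A calls. With brightness in the model no tested probe passed in that comparison, and all-probe calls ran from 58 to 1684 as single arrays were left out. Between AromhumH and AromhumL 7 of 22 tested S phase genes passed, all 7 higher in AromhumH, where 2.86% of all tested probes were called higher, and the median change over the list was 0.37. The other 15 did not pass, and 2 of them, Rfc2 and Rfc4, had a lower mean in AromhumH. Mcm6, a subunit of the replicative helicase, differed by 1.52 (SE 0.25, adjusted p = 0.0101), Lig1, which joins Okazaki fragments, by 1.02 (SE 0.18, adjusted p = 0.0120), and Mcm5, another helicase subunit, by 1.28 (SE 0.25, adjusted p = 0.0171). Against WT, Lig1 was the 1 S phase gene to pass, at 0.95 (adjusted p = 0.0240), where 0.752% of all tested probes were called. Of 9 tested mitosis genes, 7 passed and were higher in AromhumH than in AromhumL, with a median of 0.83; the other 2 did not pass, and Aurka had a lower mean in AromhumH. The mitotic kinase Plk1 differed by 0.81 (adjusted p = 0.0178), the checkpoint kinase Bub1b by 1.23 (adjusted p = 0.0179) and Cdc20, an activator of the anaphase-promoting complex, by 1.27 (adjusted p = 0.0207), whereas 0 mitosis genes passed against WT by limma (smallest adjusted p 0.0760).

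Per array, the mean centred level of the 22 S phase genes ran from -0.26 to 0.10 in WT, from -0.35 to -0.15 in AromhumL and from 0.14 to 0.41 in AromhumH, so AromhumH did not overlap the other groups. The mitosis mean ran from -0.49 to 0.28 in WT, from -0.61 to -0.23 in AromhumL and from 0.27 to 0.73 in AromhumH, where AromhumH and WT overlapped. For both lists AromhumL 1 was the lowest array, WT 1 the second lowest, and AromhumH 1 and 4 the highest pair, the same arrays that stood at the ends for the H2A probes. AromhumL 1 and WT 1 were also the dimmest arrays of all, with mean raw intensities of 222 and 267. AromhumH 1 was the brightest at 373, whereas AromhumH 4, at 296, was the dimmest AromhumH array. The part of the S phase and mitosis genes, and of array brightness, in the H2A result was not tested.

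**Figure D5:**
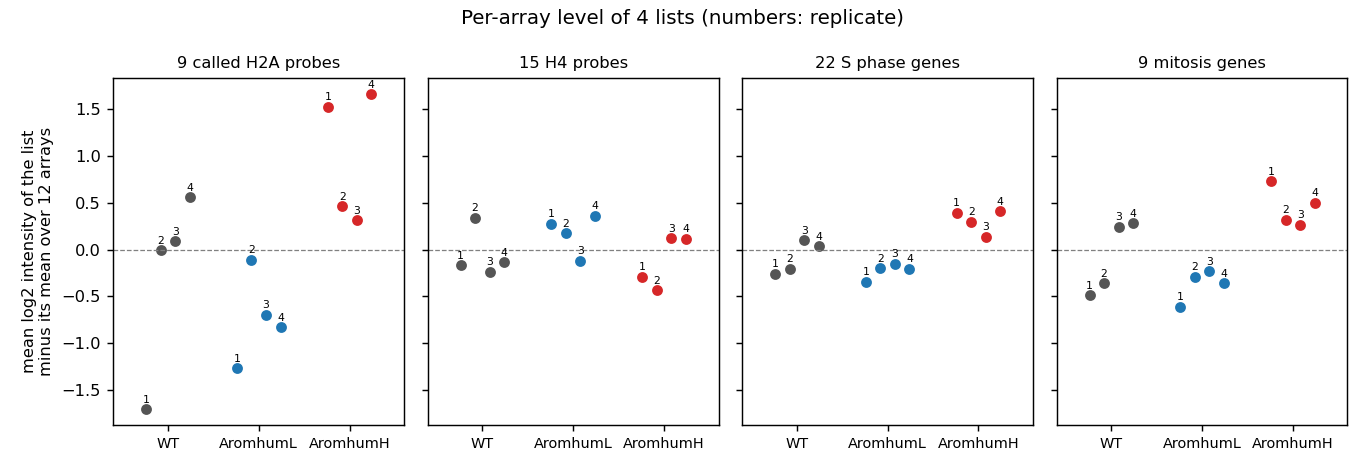
Each point is the mean log2 intensity of a list on 1 array minus that list's mean over 12 arrays (vertical axis), by group (horizontal axis) with replicate numbers, for the 9 changed H2A probes, the 15 H4 probes, 22 S phase genes and 9 mitosis genes. AromhumH 1 and 4 are highest for the H2A, S phase and mitosis lists, but not for the H4 probes.

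The counts for genes that make, process or handle histones are read against the 4.74% of all tested probes called between AromhumH and AromhumL. Of 9 tested replacement histone variants, which are made outside S phase or at special sites, 1 passed between AromhumH and AromhumL: Cenpa, the centromeric H3 variant, was higher by 0.92 (SE 0.25, adjusted p = 0.0498). None of 10 tested genes for histone transcription and mRNA processing or decay passed by limma (median -0.05, smallest adjusted p 0.103), and Slbp, the stem-loop binding protein, was not detected often enough to be tested. Of 13 tested chaperones, 1 passed: Chaf1a, a subunit of the assembly factor that deposits H3 and H4 behind the replication fork, was higher by 0.55 (SE 0.14, adjusted p = 0.0379). Against WT, 0 genes of these 3 lists passed by limma (smallest adjusted p 0.110).

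Markers of other cell types also moved between the groups. Between AromhumH and AromhumL, 6 of 8 tested mesothelial markers passed, all 6 higher in AromhumH, and 8 of 8 had a higher mean there (median 1.36), where 4.74% of all tested probes were called. Their mean centred level ran from -0.97 to -0.23 in WT, -0.97 to 0.20 in AromhumL and 0.55 to 1.33 in AromhumH, with AromhumH 2 highest. Of 9 fibroblast markers, 2 passed and were higher in AromhumH and 8 had a higher mean there, with list means from -0.28 to 0.24, -0.53 to 0.06 and 0.03 to 0.50 in the same order. Of 4 satellite cell and myoblast markers, 1 passed and was higher and 3 had a higher mean, with list means from -0.14 to 0.27, -0.29 to -0.08 and 0.10 to 0.35, and with Pax7 and Myf5 detected too rarely to be tested. Lymphocyte markers had 1 tested gene of 8 with a probe, since Cd3e, Cd3g, Cd8a, Cd4, Ms4a1, Nkg7 and Cd2 were detected too rarely. Macrophage, endothelial, erythroid and adipocyte markers had 0 called genes of 9, 5, 5 and 5 by limma in this comparison (smallest adjusted p 0.148). In the same order, 7, 3, 5 and 2 of them had a higher mean in AromhumH, with medians of 0.16, 0.12, 0.66 and -0.36. The part of these cell types, and of the brightness difference between the groups, in the H2A result was not tested, and in bulk tissue a change in the number of cells cannot be told apart from a change in RNA per cell.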

How the data were processed

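Total RNA from 12 samples was labelled with biotin and hybridised to Illumina mouse bead arrays. The deposited table holds 1 intensity and 1 detection p-value per probe and array, not normalized per the file headers, and a second deposited table holds the authors' processed values on a log2 scale, with no steps stated. Intensities were corrected and quantile-normalized with limma 3.58.1 (neqc, background taken from the detection p-values, offset 16) in R 4.3.3. Probes with a detection p under 0.05 on at least 4 arrays were kept, 19004 of 45281. lmFit and eBayes fitted a model of 3 groups to the 12 arrays (9 residual and 6.68 prior degrees of freedom), and p-values were adjusted by Benjamini-Hochberg over all 19004 probes, with a threshold of 0.05. The method was tested on simulated data.

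Gene symbols came from the platform annotation, which names 1 gene for 34885 probes and several for 18; none of the latter was used. For lists of other genes, each gene was represented by a single probe, and list levels are means of centred log2 values. The histone family, its members and all lists were chosen with earlier results of these data known. Values on every array are given for each histone probe that passed in any comparison and for the brightest tested probe of each class; for genes with more than 1 tested probe they are shown in the heat map, and in words for those whose probes disagreed most. H3c14, H3c8, H4c18 and H2bc7 were added after their values were seen. The arrays' number limits the precision: the median SE of a log2 change was 0.16. Arrays of a group correlated at 0.976 to 0.988. Alternatives covered background correction, normalization, detection filters, probe choice, the variance model, array brightness, the replicate number as a block and leaving out each array. Replicate numbers came from the titles. Deviations from group means of same-numbered arrays correlated at -0.26 to 0.33, over 0.1 in 2 of 12 pairs, so the numbers were not taken to pair the samples.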

Additional observations from a re-analysis of the deposited data

Results flagged for a closer look

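In each group of 4 arrays, the array farthest from the rest was compared with Dixon's 95% critical value for 14 probes, the 9 changed H2A probes and the brightest probe of each class. Of 42 groups of arrays, 2 held such an array, and chance gives about 2.10. Both concern WT 2: H1f2 probe ILMN_2774537 read 12.05 there, against 12.24 to 12.25 on the other WT arrays. H2bc4 probe ILMN_1242399 read 11.82 there, against 11.99 to 12.02. WT 1, which was the lowest array for 8 of the 9 changed H2A probes, did not pass that value for any of them.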

How the results depend on the processing

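The count of 9 histone probes higher in AromhumH than in AromhumL became 1 with no background correction, 17 with median scaling in place of quantiles, 0 on the authors' processed values, 0 with no detection filter, 1 with a trended, robust prior variance and 0 with array brightness as a covariate, which left 0 calls among all probes. It was 9 at a detection p under 0.01, 8 among probes detected on all arrays, 6 with one probe per gene and 11 with only the groups compared. With the replicate block it was 8, H2ac15 being lost (adjusted p = 0.0516), although the numbers do not pair the samples. Leaving out each array gave 0 to 16 (11 higher and 5 lower without AromhumH 3; 12 without WT 1; 6 without WT 2 or WT 3). In AromhumH against WT the count ran from 0 to 1 when arrays were left out and was 0 otherwise, and in AromhumL against WT it was 0 throughout. Median scaling moved the median histone change to 0.22 in AromhumH against AromhumL, where all-probe calls became 3867 higher and 53 lower from 544 and 357, and to -0.11 in AromhumL against WT. All-probe counts ran from 58 to 1684 when arrays were left out in AromhumH against AromhumL, and from 13 to 434 in AromhumH against WT, where no detection filter gave 7, median scaling 52, the authors' processed values 87 and brightness 67. In the former comparison the authors' processed values gave 412 and no detection filter 70. With brightness as a covariate, the AromhumL against WT changes turned positive for H2ac7 (0.225 and 0.139), H2ac10 (0.327), H2ac12 (0.307), H2ac13 (0.284), H2ac15 (0.360), H2ac22 (0.138) and H2ac24 (0.275). Between AromhumH and AromhumL, H1f2 turned to 0.384 with median scaling, 0.0107 with brightness and ran from -0.0987 to 0.0548 over arrays left out (the upper value without AromhumH 1), and H2bc4 to -0.0793 with brightness, with -0.0345 to 0.0430 over arrays left out (-0.000851 without AromhumH 2, -0.0293 without AromhumL 1 and -0.0104 without AromhumL 3). The 9 H2A probes were higher in AromhumH than in AromhumL in every alternative run, by 0.224 to 2.61. In the runs that left out an array this direction was fixed in advance, since the arrays of these groups did not overlap for any of the 9 probes. The cause of these shifts was not tested. Dim probes such as H2ac11, near background in AromhumL, carry the least certain changes.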
